A study of Mus musculus with 16 samples.

Results

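The 9 genes described here encode parts of the calcineurin and NFAT pathway in mouse heart ventricle, namely the calcineurin inhibitors Rcan1 and Rcan2, the calcineurin subunits Ppp3ca, Ppp3cb and Ppp3r1, and the transcription factors Nfatc1, Nfatc2, Nfatc3 and Nfatc4. They were chosen by symbol from a table of 22372 protein-coding genes, with no measured value in the rule. Earlier results of these data were known when they were chosen. The filter on low counts left 13331 genes for testing, and 9 of 9 passed it. RNA came from a 10 to 20 mg piece of the ventricles of male C57BL/6J mice that were 10 to 12 weeks old when the experiment began. There were 4 groups of 4 libraries, which the labels number as replicates of a group. Transverse aortic constriction (TAC) ties a suture around the aortic arch and loads the left ventricle with pressure, and sham mice had the same operation without the suture. The compound THZ1 binds covalently to and inhibits Cdk7, Cdk12 and Cdk13, kinases that phosphorylate the tail of RNA polymerase II. Per the labels, injections into the peritoneum of 10 mg/kg, 2 each day, began on day 1 after surgery and ended on day 60. The groups were Sham-Veh (sham and vehicle), Sham-THZ1 (sham and THZ1), TAC-Veh (constriction and vehicle) and TAC-THZ1 (constriction and THZ1). No group carried a transgene or a deletion. The drug was given to the whole animal, and each piece was bulk tissue with the cell types of the ventricle mixed.

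Calcineurin is a phosphatase that is switched on by calcium and calmodulin. Its catalytic A subunit, from Ppp3ca, Ppp3cb or Ppp3cc, binds a regulatory B subunit from Ppp3r1. Active calcineurin removes phosphates from the NFAT factors, which then enter the nucleus and bind DNA at sites with a GGAAA core, often together with AP-1. In cardiac muscle this route is a classical driver of hypertrophy under pressure overload. The Rcan proteins bind calcineurin and restrain it. Rcan1 is also a known target of NFAT, through an internal start site in the gene, so that its short transcript serves as a common readout of calcineurin activity and as feedback on it.

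Because of this known link, the sequences before the start sites of Rcan1 are shown first, with those of Nfatc4, the other gene of the 9 that was higher with TAC. Each window is the 250 bases before a RefSeq start site on GRCm38.p6, read 5′ to 3′ on the strand of the gene. Capitals mark the NFAT core GGAAA on either strand (TTTCC on the opposite strand) and the AP-1 motif TGANTCA, searched on both strands. The first window is chr16:92400079-92400328 on the minus strand, the second is chr16:92466170-92466419 on the minus strand, and the third is chr14:55824545-55824794 on the plus strand.
Rcan1, internal start site: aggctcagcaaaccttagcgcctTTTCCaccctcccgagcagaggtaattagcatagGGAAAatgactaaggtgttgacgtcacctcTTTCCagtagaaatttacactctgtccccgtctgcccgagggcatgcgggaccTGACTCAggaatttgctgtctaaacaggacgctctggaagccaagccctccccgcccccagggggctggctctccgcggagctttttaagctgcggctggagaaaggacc
Rcan1, upstream start site: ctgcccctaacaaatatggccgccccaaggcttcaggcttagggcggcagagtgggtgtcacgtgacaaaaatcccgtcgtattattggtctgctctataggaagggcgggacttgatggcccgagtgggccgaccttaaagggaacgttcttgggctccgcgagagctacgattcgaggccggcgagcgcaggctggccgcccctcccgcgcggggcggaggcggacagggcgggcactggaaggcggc
Nfatc4: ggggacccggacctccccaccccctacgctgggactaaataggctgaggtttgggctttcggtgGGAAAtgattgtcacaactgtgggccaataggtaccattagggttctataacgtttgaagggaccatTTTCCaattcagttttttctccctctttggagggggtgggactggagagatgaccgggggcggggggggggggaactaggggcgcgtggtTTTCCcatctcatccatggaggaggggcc

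The Rcan1 window before the internal start site held 3 NFAT cores and 1 AP-1 motif. Counted from the start site, its cores began at -227, -193 and -163 and its AP-1 motif at -110. The window before the upstream start site, 66091 bases away, held 0 of either motif. The Nfatc4 window held 3 cores and 0 AP-1 motifs. Of all 32851 promoter windows of this length, 55.6% held at least 1 NFAT core, 6.39% held at least 3, and 6.75% held at least 1 AP-1 motif. Windows were found for 7 of the 9 genes, 12 in all. Among the others, Ppp3cb held 3 cores, Ppp3r1 held 0, Nfatc2 held 3 and 1, Nfatc3 held 1 and 0, and Rcan2 held 2, 0 and 0 with 1 AP-1 motif in the last of these. A match of letters is a description and not a bound site.

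**Figure D1:**
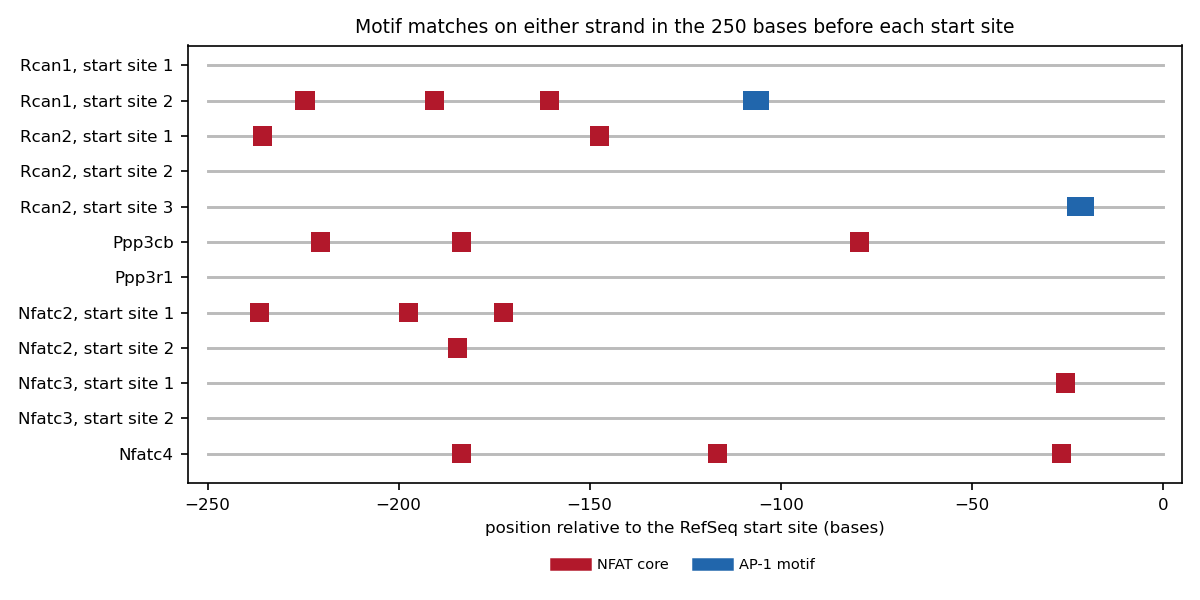
Positions of the NFAT core (red) and the AP-1 motif (blue) in the 250 bases before each of 12 RefSeq start sites of 7 genes; the x axis gives bases relative to the start site. Start site 2 of Rcan1 is the internal one, and of the 12 windows it alone held both motifs, with 3 cores and 1 AP-1 motif.

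The deposited values were normalized counts, and the reads recovered from them came to 21.4 to 35.8 M (mega) per library. For the 9 genes the reads per library ran from 115 for Nfatc4 to 14457 for Rcan2. Defining cardiomyocyte genes were abundant in every group. Of 3 atrial markers, Myl7 and Sln did not pass the filter and Myl4 did. The summed count of the atrial markers was 82.3 in the TAC-Veh library of replicate 1, with the others of that group at 39.2 to 42.9. The summed count of 8 cardiomyocyte markers was 1376400 to 1478930 in Sham-Veh and 741732 to 1077130 in TAC-Veh, and that of 7 fibroblast markers was 25106 to 28022 in Sham-Veh and 66311 to 143899 in TAC-Veh. In TAC-THZ1 these sums were 1206090 to 1494950 and 27612 to 40074. The TAC-Veh library of replicate 2 stood apart with the lowest cardiomyocyte sum (741732) and the highest fibroblast sum (143899). In bulk tissue, fewer cells of a type and less RNA per cell cannot be told apart.

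Per kb of exon, the levels of the 9 genes spanned a wide range. In Sham-Veh the order of the mean normalized count per kb was Rcan2 (3067), Ppp3r1 (689), Rcan1 (539), Ppp3cb (363), Ppp3ca (357), Nfatc3 (114), Nfatc1 (75.9), Nfatc2 (47.8) and Nfatc4 (37.3). Neighbours in this order had separate library values except Ppp3cb with Ppp3ca and Nfatc2 with Nfatc4, whose ranges overlapped. In TAC-Veh, Rcan1 stood at 3037 ± 666 per kb (SD, n = 4) beside Rcan2 at 2935 ± 226, with overlapping libraries, and Nfatc4 (52.7) was above Nfatc2 (37.0) without overlap. In TAC-THZ1 the ranges of Rcan2 and Rcan1 were again separate, and those of Nfatc2 and Nfatc4 overlapped.

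**Figure D2:**
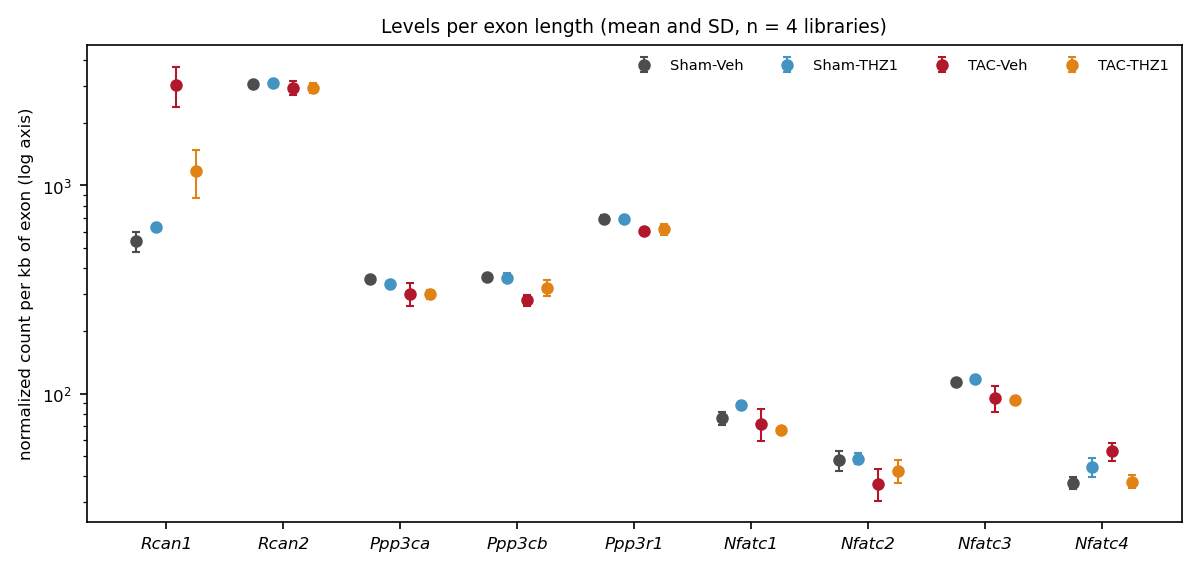
Normalized count per kb of exon (log axis) for the 9 genes; points are group means and bars the SD over 4 libraries, coloured by group as in the key. Rcan1 moved from 539 in Sham-Veh to 3037 in TAC-Veh and 1175 in TAC-THZ1, while Rcan2 stayed between 2935 and 3110.2.

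The first question was how pressure overload changed these genes in vehicle-treated mice. Of the 9 genes, 2 rose and 5 fell, against a background of 21.4% of all tested genes called higher and 23.6% called lower. The 2 of 9 that rose are near that background and the 5 of 9 that fell are above it, with no test of the difference. Calls were made with limma on log2(normalized count + 1) at an adjusted p under 0.05. The median log2 fold change was -0.19 over the 9 genes and -0.0030 over all tested genes. Groups did not overlap for 2 genes higher and 3 lower, while 18.2% and 19.1% of all genes did not overlap in those directions. The calls differed sharply in size, since Rcan1 rose several fold and no other member changed by more than a factor of 1.41.

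Rcan1, the inhibitor with the NFAT-responsive start site (ENSMUSG00000022951.9), lies on chromosome 16 at 92392198 to 92466391 (mm9, minus strand), and had the largest change of the 9. Its normalized counts were 1497, 1189, 1271 and 1448 in the 4 Sham-Veh libraries and 6522, 10071, 6637 and 7216 in the 4 TAC-Veh libraries. Every TAC-Veh library was far above every sham library. The rise was 5.56-fold, a log2 fold change of 2.48 (SE 0.16, 95% confidence interval 2.14 to 2.81, limma adjusted p 5.18e-08), and ranked 99th highest of 13331 genes. The highest value, 10071, was in the TAC-Veh library of replicate 2, whose marker sums stood apart. Without that library the log2 fold change was 2.33 (limma adjusted p 1.07e-07). The fibroblast marker sum was also highest in TAC-Veh, with 5 of 7 markers called higher with TAC, and its part in the result was not tested. The table gives 1 value per gene, so reads from the internal and the upstream start site of Rcan1 cannot be told apart.

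Rcan2, the second inhibitor (ENSMUSG00000039601.8), lies on chromosome 17 at 43938800 to 44176465 (plus strand). It had 11799, 11596, 11213 and 12294 normalized counts in Sham-Veh and 11188, 10076, 11471 and 12150 in TAC-Veh. The groups overlapped, and the log2 fold change of -0.066 did not pass the test (95% confidence interval -0.20 to 0.069, limma adjusted p 0.423). Rcan1 took 14.9% ± 1.12 (SD, n = 4) of the summed Rcan1 and Rcan2 level per kb in Sham-Veh and 16.8% ± 0.570 in Sham-THZ1. Its share was 50.5% ± 6.62 in TAC-Veh and 28.3% ± 6.36 in TAC-THZ1. These shares are given as a description with no test.

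**Figure D3:**
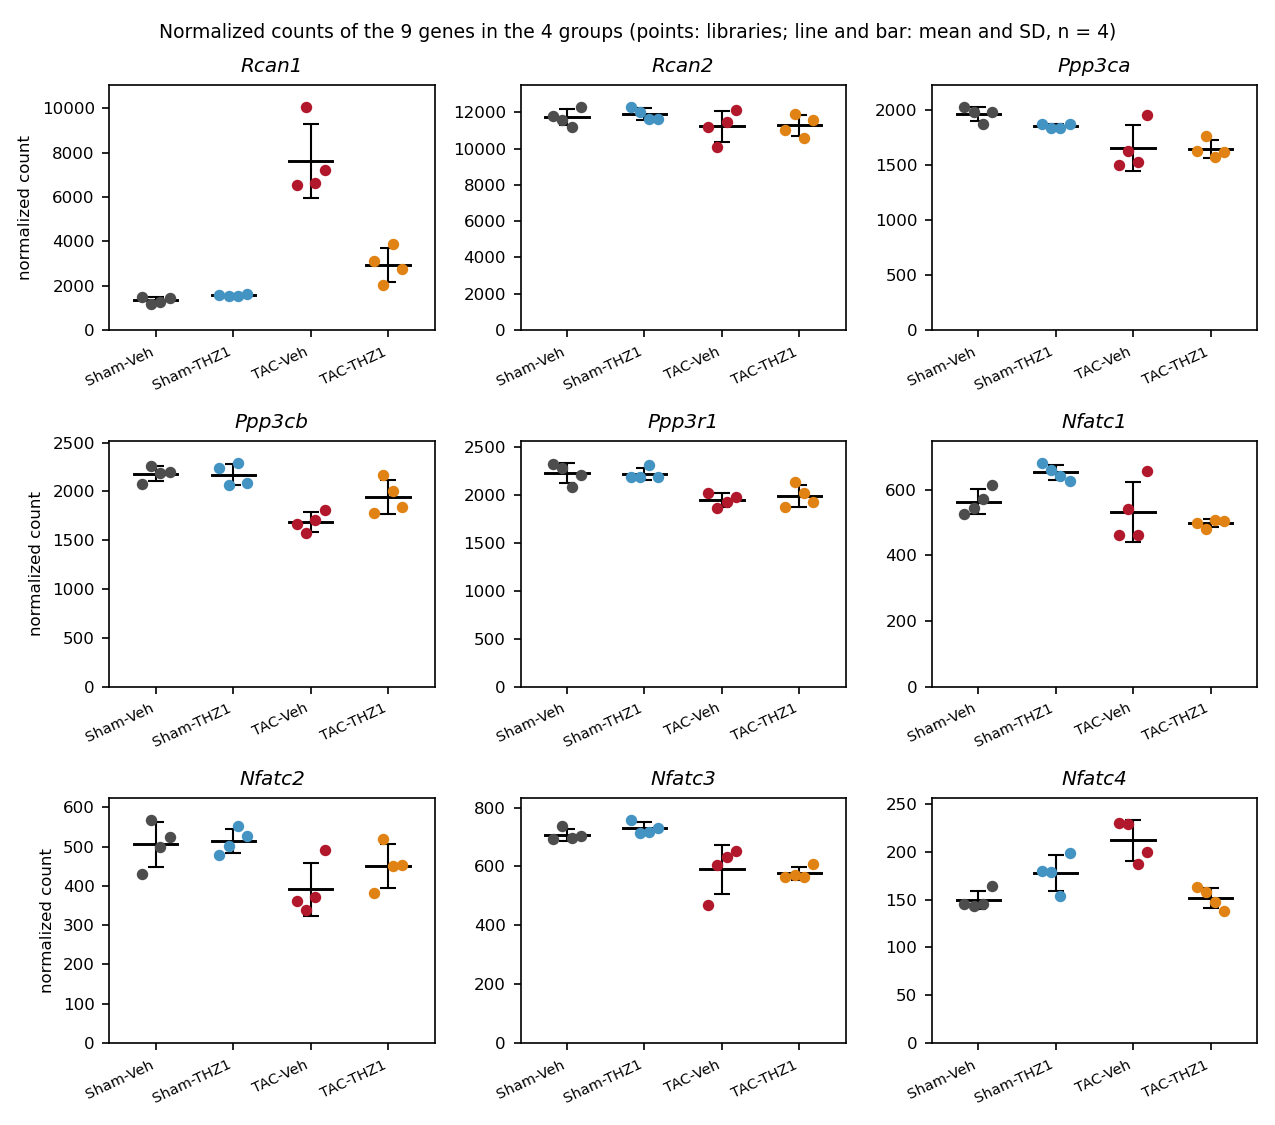
Normalized counts of the 9 genes (y axis, from 0) in the 4 groups; each point is 1 library, and the line and bar give the mean and SD of 4. Rcan1 ranged from 6522 to 10071 in TAC-Veh and from 2032 to 3868 in TAC-THZ1, with both sham groups below these ranges, and Nfatc4 was higher in every TAC-Veh library than in any Sham-Veh or TAC-THZ1 library.

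The 3 calcineurin subunit genes among the 9 each fell with TAC by a small amount. Ppp3cb, the catalytic subunit beta (ENSMUSG00000021816.4, chromosome 14, 21318586 to 21365795, minus strand), had 2075, 2260.4, 2188 and 2204 normalized counts in Sham-Veh and 1662, 1572, 1704 and 1809 in TAC-Veh. Its groups did not overlap, and the log2 fold change was -0.37 ± 0.066 (SE, limma adjusted p 3.04e-04). Ppp3ca, the catalytic subunit alpha (ENSMUSG00000028161.9, chromosome 3, 136333088 to 136600691, plus strand), had 2031, 1984, 1879 and 1982 in Sham-Veh and 1500.2, 1633, 1535 and 1956 in TAC-Veh. Only the TAC-Veh library of replicate 4 reached the Sham-Veh range, and the log2 fold change was -0.26 ± 0.071 (SE, limma adjusted p 0.00749). Ppp3r1, the regulatory B subunit (ENSMUSG00000033953.10, chromosome 11, 17059266 to 17100378, plus strand), had 2323, 2286, 2087 and 2207 in Sham-Veh and 2021, 1861, 1929 and 1978 in TAC-Veh. Its groups were separate, at a log2 fold change of -0.19 ± 0.055 (SE, limma adjusted p 0.00957). Ppp3r1 shares 462 exon bases with Wdr92 on the same strand, and reads there cannot be assigned by position alone. Cardiomyocyte markers moved in the same direction, with 4 of 8 called lower with TAC, and their part in the fall was not tested. The summed level per kb of Ppp3ca and Ppp3cb was 719.7 ± 13.6 in Sham-Veh and 581 ± 50.1 in TAC-Veh, and Ppp3ca made up 49.6% ± 1.44 and 51.6% ± 2.37 of it. This sum leaves out the remaining catalytic gene, Ppp3cc, which is not among the 9 and was higher with TAC, at 785 ± 30.9 normalized counts in Sham-Veh and 907 ± 58.8 in TAC-Veh.

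The NFAT factors did not move together with TAC. Nfatc4 (ENSMUSG00000023411.5, chromosome 14, 56443632 to 56452780, plus strand), with the lowest mean level per kb of the 4 in Sham-Veh, was the 1 NFAT gene that rose. Its normalized counts were 145, 144, 146 and 164 in Sham-Veh and 230.4, 229.5, 187 and 200.2 in TAC-Veh. The groups were separate, and the rise was 1.41-fold with a log2 fold change of 0.49 ± 0.10 (SE, limma adjusted p 7.88e-04). Nfatc3 (ENSMUSG00000031902.8, chromosome 8, 108582740 to 108654437, plus strand), the most abundant factor per kb, had 694, 737, 696 and 702 in Sham-Veh and 469, 605, 631 and 654 in TAC-Veh. All 4 TAC-Veh libraries lay below the sham range, and the log2 fold change was -0.27 ± 0.083 (SE, limma adjusted p 0.0134). When Sham-Veh and TAC-Veh were fitted without the other groups, Nfatc3 missed the threshold (limma adjusted p 0.0671). Its exons overlap 219 bases of Esrp2 on the opposite strand, a gene with a mean of 13.5 normalized counts.

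Nfatc2 (ENSMUSG00000027544.9, chromosome 2, 168301910 to 168427157, minus strand) had 431, 568, 499 and 524 normalized counts in Sham-Veh and 362, 339, 372 and 491 in TAC-Veh. The libraries of replicate 1 in Sham-Veh and replicate 4 in TAC-Veh overlapped, and the log2 fold change was -0.38 ± 0.12 (SE, limma adjusted p 0.0146). The call was lost without the library of replicate 2 in Sham-Veh (limma adjusted p 0.0542) or in TAC-Veh (0.0519). Nfatc1 (ENSMUSG00000033016.9, chromosome 18, 80802944 to 80909810, minus strand), known in the heart for valve and endocardial development, had 526, 544, 572 and 616 in Sham-Veh and 463, 543, 464 and 658 in TAC-Veh. The groups overlapped and the log2 fold change was -0.10 ± 0.093 (SE, limma adjusted p 0.411), which did not pass. Without the TAC-Veh library of replicate 4 it was -0.21 and passed (limma adjusted p 0.0273). That library was the highest of its group for 6 of the 9 genes, namely Rcan2, Ppp3ca, Ppp3cb, Nfatc1, Nfatc2 and Nfatc3. It also had the highest endothelial marker sum of its group (20136, with the others at 15309 to 17416) and the highest smooth muscle and pericyte sum (22970.4, with the others at 16590.1 to 17686), and their part in these results was not tested.

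Per kb, the summed level of the 4 NFAT genes was 275 ± 11.8 (SD, n = 4) in Sham-Veh, and with THZ1 it was 299 ± 5.36. It was 256 ± 25.8 for TAC-Veh and 241 ± 4.63 for TAC-THZ1. Nfatc4 made up 13.5% ± 0.696 of it in Sham-Veh, 20.8% ± 3.44 in TAC-Veh and 15.7% ± 1.28 in TAC-THZ1. Nfatc3 made up 41.5% ± 1.55, 37.1% ± 3.48 and 38.7% ± 1.21 in the same groups. The mean share of Nfatc4 was thus highest in TAC-Veh, and in Sham-THZ1 it was 14.8% ± 1.36. The lowest TAC-Veh library (17.15%) lay above every sham library but below the highest TAC-THZ1 library (17.23%). These NFAT shares were not tested.

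The second question was how THZ1 changed the same genes in mice with TAC. Against TAC-Veh, 1 of the 9 genes was higher in TAC-THZ1 and 2 were lower, with 15.1% of all tested genes called higher and 14.2% called lower. Neither count is far from its background. Groups were separate for 0 genes higher and 2 lower, against 9.53% and 10.5% of all genes. The median log2 fold change was 0.0014 over the 9 genes and 0.015 over all tested genes. The genes called lower were Rcan1 and Nfatc4, the 2 that had risen with TAC. Both comparisons share the TAC-Veh libraries, so a high or low TAC-Veh value moves them in opposite directions.

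Rcan1 had 3131, 2032, 3868 and 2746 normalized counts in TAC-THZ1, and every one of these libraries was below every TAC-Veh library and above every sham library. The log2 fold change against TAC-Veh was -1.38 (SE 0.16, 95% confidence interval -1.72 to -1.05, limma adjusted p 5.19e-05). That ranked 215th lowest of 13331 genes. Without the TAC-Veh library of replicate 2 it was -1.24 (limma adjusted p 1.09e-04). Among fits with 1 library left out it was weakest, at -1.22, without the TAC-THZ1 library of replicate 2. That library had the lowest Rcan1 count (2032), the lowest fibroblast sum (27612) and the highest cardiomyocyte sum (1494950) of its group. Nfatc4 had 163, 158, 147 and 139 in TAC-THZ1, separate from TAC-Veh and overlapping Sham-Veh. It was lower than in TAC-Veh, at a log2 fold change of -0.48 ± 0.10 (SE, limma adjusted p 0.00240). Fibroblast markers moved in the same direction as both genes, with 5 of 7 called lower in TAC-THZ1, and their part in these results was not tested.

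Ppp3cb, the catalytic subunit with the largest fall with TAC among the 3 subunits, had 1780.1, 2167, 2001 and 1837 normalized counts in TAC-THZ1. These values overlapped TAC-Veh at the lowest library, and the gene was called higher at a log2 fold change of 0.20 ± 0.066 (SE, limma adjusted p 0.0298). The call was lost when TAC-Veh and TAC-THZ1 were fitted alone (limma adjusted p 0.145), with array weights (0.146), and without the library of TAC-Veh replicate 2 (0.0939), TAC-THZ1 replicate 2 (0.110) or TAC-THZ1 replicate 3 (0.0653). In the same comparison, 5 of 8 cardiomyocyte markers were called higher.

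The other 6 genes did not pass the test between TAC-THZ1 and TAC-Veh. Rcan2 had 11007, 11916, 10589 and 11568 normalized counts in TAC-THZ1, and the 95% confidence interval of its log2 fold change was -0.13 to 0.14. Ppp3ca had 1634, 1769.5, 1575 and 1621 with an interval of -0.15 to 0.15. Ppp3r1 had 1872, 2134, 2018 and 1922 with an interval of -0.089 to 0.14. For Ppp3ca and Ppp3r1 these bounds were smaller than the changes of the same genes with TAC (-0.26 and -0.19).

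Among the remaining NFAT factors, Nfatc1 had 500.2, 479.9, 508 and 505 in TAC-THZ1, a narrow range that lay within the TAC-Veh range. Its interval was -0.28 to 0.12. Nfatc3 had 565, 572, 564 and 609.6 with an interval of -0.19 to 0.16. Nfatc2 had 382, 519, 452 and 452 and a log2 fold change of 0.21 (limma adjusted p 0.179). Without the TAC-Veh library of replicate 4, Nfatc2 was called higher at 0.33 (limma adjusted p 0.0254).

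**Figure D4:**
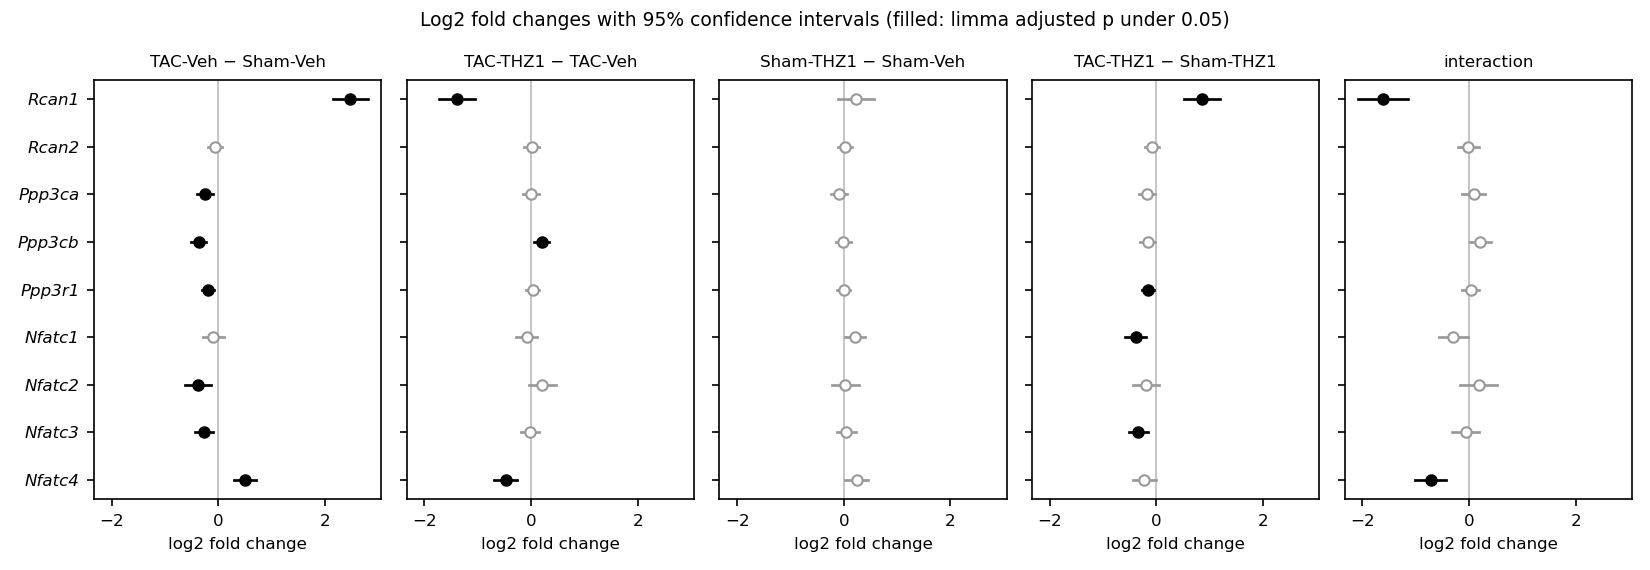
Log2 fold changes of the 9 genes (x axis) with 95% confidence intervals in 5 comparisons; filled points passed the limma adjusted p of 0.05, and the last panel gives the THZ1 effect in TAC minus that in sham. Rcan1 and Nfatc4 lie to the right of 0 with TAC (2.48 and 0.49) and to the left of 0 in the last panel (-1.61 and -0.72).

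In sham mice, limma called 0 of the 9 genes between Sham-THZ1 and Sham-Veh, with 2 (Nfatc1 and Nfatc4) at an unadjusted p under 0.05, and DESeq2 and edgeR each called 0. Of all tested genes, 0.0225% were called higher and 0.0450% lower, and 917 of 13331 had an unadjusted limma p under 0.05. Rcan1 had 1591, 1542, 1541 and 1630.0 normalized counts in Sham-THZ1, with each value above the Sham-Veh range, and a log2 fold change of 0.23 ± 0.16 (SE, limma adjusted p 0.849). Nfatc1 had 681, 659, 644 and 628, also above the Sham-Veh range, at 0.21 ± 0.093 (SE, limma adjusted p 0.692). Ppp3ca had 1873, 1840.0, 1840.5 and 1876, below the Sham-Veh range, at -0.084 ± 0.071 (SE, limma adjusted p 0.894). Groups were thus separate for 2 genes higher and 1 lower, where 6.29% and 5.05% of all genes were separate. With array weights, Nfatc1 passed in limma at 0.22 (adjusted p 0.0389). That setting called 254 of all 13331 tested genes higher and 259 lower, where the main fit called 3 and 6. The main fit pools the spread of a gene over all 4 groups, and TAC replicates differed more than sham replicates. Fitted alone, the sham groups gave 287 of all tested genes higher and 178 lower, with 0 of the 9 called.

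Nfatc4 had 180.1, 179, 154 and 199 in Sham-THZ1, which overlapped Sham-Veh, at a log2 fold change of 0.24 ± 0.10 (SE, limma adjusted p 0.685). The remaining 5 genes had log2 fold changes of -0.0085 for Ppp3cb to 0.046 for Nfatc3. Their Sham-THZ1 normalized counts were 12298, 12022, 11622 and 11619 for Rcan2, the most abundant gene. For Ppp3cb they were 2235, 2066, 2288 and 2090, and for Ppp3r1 they were 2189.9, 2187, 2316 and 2187. The NFAT factors Nfatc2 and Nfatc3 had 479, 502, 552 and 526 and 759, 714, 716 and 732. Each of these 5 genes overlapped its Sham-Veh values.

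The effect of TAC in mice given THZ1 compared TAC-THZ1 with Sham-THZ1. It had 1 of the 9 genes higher and 3 lower, with 11.4% and 12.8% of all tested genes called in those directions. Groups were separate for 1 gene higher and 4 lower, against 15.7% and 17.7%. The median log2 fold change was -0.17 over the 9 genes and 0.0018 over all tested genes. Rcan1 was higher by 1.82-fold, a log2 fold change of 0.86 ± 0.16 (SE, limma adjusted p 0.00208). Nfatc1 was lower at -0.39 ± 0.093 (SE, limma adjusted p 0.00789), and so was Nfatc3 at -0.34 ± 0.083 (SE, limma adjusted p 0.00902). In this comparison 4 of 6 endothelial markers (list median -0.44) and 3 of 6 smooth muscle and pericyte markers (list median -0.45) were also called lower, and their part in these results was not tested. Ppp3r1 was called lower at -0.16 ± 0.055 (SE, limma adjusted p 0.0427), a call that ended when any 1 of 9 libraries was left out (Sham-Veh replicates 2 and 4, Sham-THZ1 replicates 1 to 4, and TAC-THZ1 replicates 1, 3 and 4), at adjusted p of 0.0540 to 0.127. Nfatc4, called higher with TAC under vehicle, had a log2 fold change of -0.23 ± 0.10 (SE, limma adjusted p 0.106) here. It was called lower in limma with quantile normalization, at -0.28 (adjusted p 0.0470), and with array weights, at -0.25 (adjusted p 0.0406). Over all tested genes, array weights called 2379 higher and 2632 lower here, where the main fit called 1514 and 1706. Ppp3ca (-0.17), Ppp3cb (-0.16) and Nfatc2 (-0.20) did not pass, and neither did Rcan2 (-0.078). Ppp3ca passed in limma with TAC-THZ1 and Sham-THZ1 fitted alone (adjusted p 0.0177) and with array weights (0.0140). It also passed without the TAC-Veh library of replicate 4 (0.0178), which lies outside this comparison and leaves its fold change as it was. Ppp3cb passed in limma with array weights (adjusted p 0.0245) and without the TAC-THZ1 library of replicate 2 (0.0281).

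An interaction term tested whether THZ1 acted differently in mice with TAC and in sham mice. It was called for 2 of the 9 genes, both lower, where 4.40% of all tested genes were called higher and 5.62% lower. For Rcan1 it was -1.61 (SE 0.22, 95% confidence interval -2.09 to -1.14, limma adjusted p 0.00194), the 157th lowest of 13331. For Nfatc4 it was -0.72 (SE 0.14, 95% confidence interval -1.02 to -0.42, limma adjusted p 0.00661). Without the TAC-Veh library of replicate 2 these values were -1.47 and -0.68 (limma adjusted p 0.00143 and 0.0150). The Rcan1 term was weakest, at -1.45, without the TAC-THZ1 library of replicate 2. Interaction terms of the remaining 7 genes ran from -0.29 for Nfatc1 (limma adjusted p 0.162) to 0.21 for Ppp3cb (0.156) and did not pass.

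Other genes of the pathway were taken from 6 lists with 42 genes, of which 41 were tested. With TAC, 11 were higher and 11 lower, where 21.4% and 23.6% of all tested genes were called. Between TAC-THZ1 and TAC-Veh, 7 were higher and 5 lower, where 15.1% and 14.2% of all genes were called. These counts are near the background, and the counts of single lists that follow are to be read against the same percentages, with no test of a list. Their median log2 fold changes were -0.099 and -0.056. The 12 calls with THZ1 in TAC became 5 without the TAC-Veh library of replicate 2 and 6 without the TAC-THZ1 library of replicate 2. Over all tested genes, the calls went from 2019 higher and 1899 lower to 1365 and 1318 without the former library. Without the latter they were 1454 and 1407. In sham mice limma called 0 of the 41, with 6 at an unadjusted p under 0.05, and DESeq2 and edgeR called 0. Of all 13331 tested genes, 917 had an unadjusted limma p under 0.05 there. Among 3 further family members, Ppp3cc, another catalytic subunit, rose with TAC by 0.21 ± 0.064 (SE, limma adjusted p 0.0144) and the other two, Rcan3 and Nfat5, were not called.

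Of 10 anchors and modulators of calcineurin, 3 rose with TAC and 0 fell, with a median log2 fold change of -0.094, against 21.4% of all genes higher and 23.6% lower. Lmcd1, a LIM protein of cardiac muscle, had 808 ± 17.1 normalized counts in Sham-Veh (SD, n = 4), 1338 ± 151 in TAC-Veh and 887 ± 91.1 in TAC-THZ1. TAC changed it by 0.72 ± 0.086 (SE, limma adjusted p 7.86e-06) on the log2 scale, and THZ1 in TAC by -0.59 ± 0.086 (SE, limma adjusted p 2.19e-04). Cib1, a calcium-binding protein that anchors calcineurin at the sarcolemma, had log2 fold changes of 0.72 and -0.32 (limma adjusted p 5.83e-05 and 0.0321). Myoz1, a calsarcin of fast skeletal muscle, had 4.63 ± 1.78 normalized counts in Sham-Veh and 23.6 ± 15.4 in TAC-Veh, low levels at which its log2 fold changes of 1.99 and -1.26 rest on few reads. Fhl2 was the 1 gene of this list called higher with THZ1 in TAC, at 0.40 ± 0.15 (SE, limma adjusted p 0.0484), close to the threshold. It was not called with TAC (limma adjusted p 0.157). In the comparison with THZ1 in TAC, 5 of 8 cardiomyocyte markers were also called higher, and their part was not tested.

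Of 9 kinases that act on NFAT, 5 fell with TAC and 0 rose, and 4 were higher with THZ1 in TAC, against 23.6% of all genes lower and 15.1% higher in these comparisons. Their median log2 fold changes were -0.30 and -0.027. Cardiomyocyte markers moved in the same directions, with 4 of 8 called lower with TAC (list median -0.55) and 5 of 8 higher with THZ1 in TAC (0.47), and their part in the changes of the kinases, of the calcium channels and of the NFAT partners was not tested. The 3 with the smallest adjusted p were Mapk14, the p38 alpha kinase, at -0.57 ± 0.074 (SE, limma adjusted p 1.75e-05), Csnk1e, a casein kinase, at -0.32 ± 0.061 (SE, limma adjusted p 4.50e-04), and Prkaca, the catalytic subunit of protein kinase A, at -0.42 ± 0.080 (SE, limma adjusted p 5.03e-04). With THZ1 in TAC their log2 fold changes were 0.26, 0.20 and 0.26 (limma adjusted p 0.0157, 0.0202 and 0.0220). The other two that fell with TAC were Gsk3a and Gsk3b, the glycogen synthase kinases.

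Of 9 calmodulins and calcium entry genes, 3 rose and 3 fell with TAC, with a median of -0.10, against 21.4% of all genes higher and 23.6% lower. Cacna1h, a T-type calcium channel, had 275 ± 37.8 normalized counts in Sham-Veh, 64.8 ± 29.8 in TAC-Veh and 175 ± 42.2 in TAC-THZ1. TAC changed it by -2.16 ± 0.23 (SE, limma adjusted p 3.40e-06) on the log2 scale, and THZ1 in TAC by 1.50 ± 0.23 (SE, limma adjusted p 3.43e-04). Cacna1c, the L-type channel of the cardiac action potential, had -0.56 and 0.23 (limma adjusted p 3.70e-05 and 0.0377). Both channels moved in the directions of the cardiomyocyte markers, of which 4 of 8 were lower with TAC and 5 of 8 higher with THZ1 in TAC. Calm2, a calmodulin gene, rose with TAC by 0.50 ± 0.10 (SE, limma adjusted p 8.60e-04).

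Of 6 transcription partners of NFAT, 3 fell with TAC and 0 rose, with a median of -0.21, against 23.6% of all genes lower. Of the 8 cardiomyocyte markers 4 were lower in this comparison. The log2 fold change was -0.68 ± 0.082 (SE, limma adjusted p 8.27e-06) for Mef2a, -0.75 ± 0.12 (SE, limma adjusted p 9.41e-05) for Mef2d and -0.23 ± 0.088 (SE, limma adjusted p 0.0457) for the cardiac factor Gata4. Their log2 fold changes with THZ1 in TAC were 0.15, 0.26 and 0.19 and did not pass (limma adjusted p 0.173, 0.0989 and 0.110). Of 4 genes known to respond to calcineurin in heart, 4 rose with TAC and 2 were lower with THZ1 in TAC. Of all genes, 21.4% and 14.2% were called in those directions, and the medians of the list were 3.35 and -0.91. The list was chosen with earlier results of these data known, so its counts are a description and no measure of calcineurin activity. Acta1, skeletal alpha-actin, rose by 4.38 ± 0.23 (SE, limma adjusted p 1.53e-08) and was lower with THZ1 in TAC, at -1.17 ± 0.23 (SE, limma adjusted p 0.00172). Nppb, the B-type natriuretic peptide, rose by 2.46 ± 0.21 (SE, limma adjusted p 3.75e-07) and was lower at -0.87 ± 0.21 (SE, limma adjusted p 0.00529). Myh7, the slow myosin heavy chain, rose by 4.24 ± 0.47 (SE, limma adjusted p 3.98e-06), and its value with THZ1 in TAC, -0.95 ± 0.47 (SE, limma adjusted p 0.135), did not pass. The fourth gene, Edn1, was named after its values were seen and rose by 0.71 ± 0.17 (SE, limma adjusted p 0.00299).

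**Figure D5:**
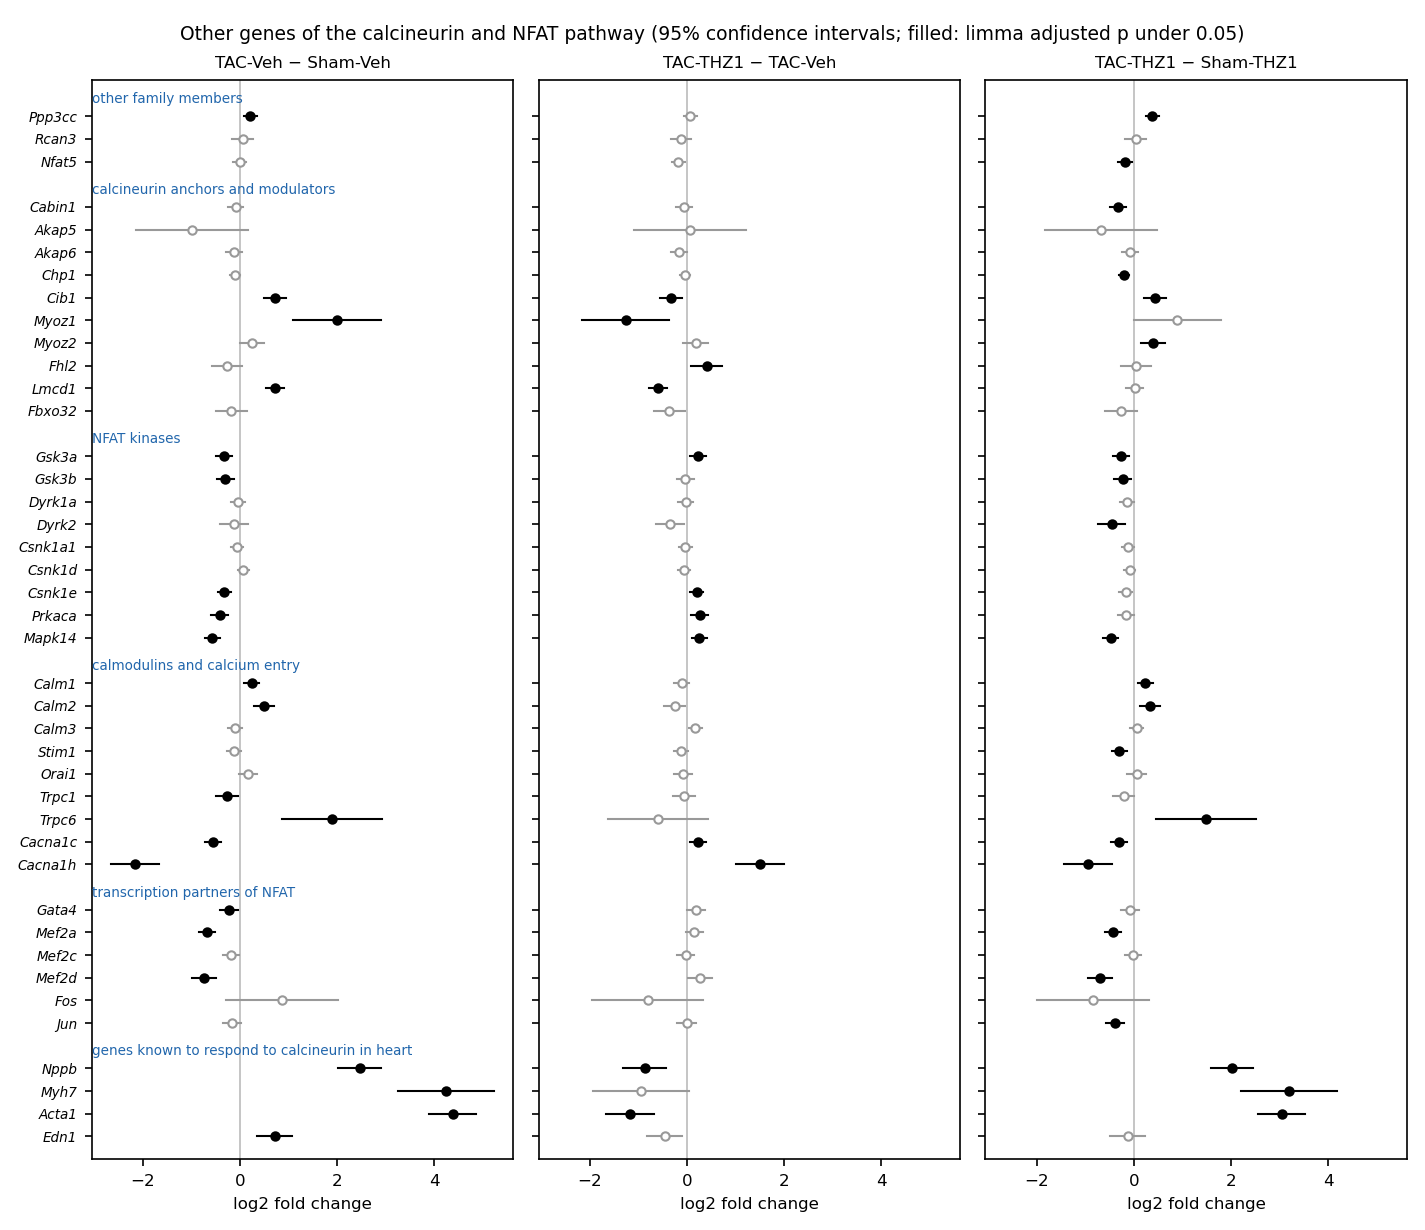
Log2 fold changes (x axis) with 95% confidence intervals of the 41 tested genes of 6 pathway lists, with TAC (left), with THZ1 in TAC (middle) and with TAC under THZ1 (right); filled points passed the limma adjusted p of 0.05. With TAC, 4 of 4 genes listed as responding to calcineurin lie to the right of 0 and 5 of 9 NFAT kinases are filled to the left. Of all tested genes, 21.4% were called higher and 23.6% lower, and the lists were chosen with earlier results known.

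The genes with a profile most like that of Rcan1 were sought by the root mean square difference of log2 values, centred on each gene's mean, over the 16 libraries. The 5 closest were Bgn (0.21), Uck2 (0.21), Svep1 (0.24), Emp1 (0.26) and Xirp2 (0.26). The median over 13330 genes was 1.02, and the spread of Rcan1 around its own mean was 0.996. Log2 fold changes with TAC and with THZ1 in TAC were 2.24 and -1.46 for Bgn, a matrix proteoglycan, and 2.25 and -1.30 for Xirp2, a protein of the cardiomyocyte intercalated disc. For Rcan1 they were 2.48 and -1.38. The likeness is a description over libraries that share the same 4 groups.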

How the data were processed

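RNA sequencing of 16 mouse ventricle pieces was analysed, with 4 libraries in each of 4 groups taken from the labels. The labels number the replicates without stating that each is a separate mouse, so p-values measure the spread between these samples. Per the study's methods, the authors aligned stranded mRNA reads to mm9 with TopHat2 2.1.1, obtained gene counts by htseq-count on GENCODE models, and scaled them by DESeq2 size factors. Thus the deposited signal holds 1 normalized count for each gene in each library. In units of the smallest step of a library, 100% of the values above 0 were whole reads (tolerance 0.01). The totals are reads in protein-coding genes, at 21.4 to 35.8 M (mega) per library. For the 9 genes counting error alone gives a coefficient of variation of 0.910% to 8.28%. In 8 of 36 sets of 1 gene in 1 group the libraries spread no more than that, among them Nfatc4 in Sham-Veh and in TAC-THZ1. Counts of replicate pairs differed beyond sampling noise. The chi-square per degree of freedom was 3.06 to 7.82 within the sham groups and 10.7 to 98.3 within the TAC groups.

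The values are not raw counts, so log2(normalized count + 1) was tested in limma 3.58.1 (R 4.3.3). The model held a mean for each of the 4 groups and a spread for each gene shared by them, and eBayes used a trend. The SE of a sham comparison thus also rests on the spread of the TAC libraries. Genes needed at least 10 normalized counts in at least 4 libraries. P-values were adjusted by Benjamini-Hochberg over 13331 genes within each of 5 contrasts and called at 0.05. Two-sided tests and SE are those of limma. Positions and exon lengths came from the GENCODE annotation on NCBIM37, and promoter sequences from RefSeq on GRCm38.p6. Count models on the recovered reads used DESeq2 1.42.0 and edgeR 4.0.16. The fitting steps were tested on simulated data.

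The genes named were the 9 members, up to 3 called genes of each pathway list with the smallest adjusted p with TAC and with THZ1 in TAC, and the 5 genes most like Rcan1; Fhl2, Gsk3a, Gsk3b, Rcan3, Nfat5 and Edn1 were named after their values were seen. The members and lists were chosen with earlier results of these data known, and 1 gene of the pathway lists is not reported here. Marker lists of 7 cell types were used for the checks. Endothelial, smooth muscle and pericyte, and macrophage markers had 1, 1 and 4 of 6 called higher with TAC and 2, 2 and 0 lower. Lymphocyte markers had 3 of 7 tested and atrial markers 1 of 3, with 0 called with TAC. Alternatives were other pseudocounts, filters and scalings, the 2 groups alone, array weights, robust eBayes, a replicate block, both count models, other thresholds, and leaving out each library in turn. No sequencing batch or date was given, so batches were not compared.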

Additional observations from a re-analysis of the deposited data

Results flagged for a closer look

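By the interaction term in limma, THZ1 acted differently in mice with TAC and in sham mice for Rcan1 (-1.61, adjusted p 0.00194) and Nfatc4 (-0.72, adjusted p 0.00661) among the 9 genes. Among the other pathway genes this held for Lmcd1 (-0.70, adjusted p 0.00378), Acta1 (-1.34, adjusted p 0.0195), Edn1 (-0.83, adjusted p 0.0383) and Cacna1h (1.23, adjusted p 0.0289). Each value is the log2 fold change of THZ1 in TAC minus that in sham. The other pathway genes called were 1 higher and 3 lower of 41 tested. Of all tested genes, 4.40% were called higher and 5.62% lower, so these pathway counts are near the background. With 1 of the 16 libraries left out, Lmcd1 and Acta1 were called in 16 of 16 fits. Cacna1h lost its call in 8 of them (limma adjusted p 0.0505 to 0.0643), namely without Sham-Veh replicates 2 to 4, Sham-THZ1 replicates 1 to 3, TAC-Veh replicate 2 or TAC-THZ1 replicate 2. Edn1 lost its call in 11 (limma adjusted p 0.0532 to 0.0800), namely without Sham-Veh replicates 1 to 4, Sham-THZ1 replicates 1, 2 and 4, TAC-Veh replicate 2 or TAC-THZ1 replicates 1, 2 and 4.

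In 3 of 36 groups of 4 values, 1 library lay far from the rest of its group by Dixon's criterion, which chance meets in about 1 group of 20. Ppp3r1 had 2316 normalized counts in the Sham-THZ1 library of replicate 3. Nfatc3 had 609.6 in the TAC-THZ1 library of replicate 4. Nfatc4 had 164 in the Sham-Veh library of replicate 4.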

How the results depend on the processing

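Results were recomputed under 14 alternatives and with each of 16 libraries left out. Of 1341 log2 fold changes of the 9 genes, 1261 kept their direction and their side of the threshold, 35 lost a call, 10 gained one and 35 changed sign. Many of the 1341 could not change direction. Settings that altered only a threshold kept the main fold change. Leaving out a library of neither group in a comparison kept it too. The counts of called genes moved by over 1.5 times in 6 cases. With the fold thresholds of the study (1 between surgeries and 0.89 between treatments) the counts were 1 with TAC, 1 with THZ1 in TAC, 0 with TAC under THZ1 and 1 for the interaction, each because fewer genes reach the fold. With array weights they were 1 with THZ1 in sham (Nfatc1) and 7 with TAC under THZ1. Array weights also raised the calls over all 13331 tested genes. In sham these went from 3 higher and 6 lower to 254 and 259. With TAC under THZ1 they went from 1514 higher and 1706 lower to 2379 and 2632. The cause was not tested.

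Changes of sign concerned values near 0 that did not pass. Rcan2 with TAC was 0.00021 after quantile normalization, and with THZ1 in TAC it was -0.0015 with upper quartile scaling and -0.10 after quantile normalization. Ppp3ca with THZ1 in TAC was -0.0081, -0.012, -0.019, -0.0086 and -0.0096 with upper quartile scaling, quantile normalization, array weights, DESeq2 and edgeR. With libraries left out, values with THZ1 in TAC spanned -0.043 to 0.047 for Rcan2, -0.043 to 0.084 for Ppp3ca, -0.0075 to 0.055 for Ppp3r1, -0.14 to 0.028 for Nfatc1 and -0.13 to 0.034 for Nfatc3. In sham they spanned -0.00073 to 0.044 for Rcan2, -0.034 to 0.014 for Ppp3cb, -0.034 to 0.018 for Ppp3r1 and -0.042 to 0.090 for Nfatc2, and for the interaction -0.063 to 0.027 for Rcan2 and -0.0045 to 0.061 for Ppp3r1.

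Replicate numbers did not pair the samples. The correlation of deviations from group means was -0.43 to 0.16 over 24 pairs of equal number, and 2 of 16 libraries were closest to their own number. With the replicate block the members called were 7, 3, 0, 3 and 2 in the 5 contrasts, and Ppp3r1 with TAC under THZ1 had a limma adjusted p of 0.0685.

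Among the other pathway genes, the count with THZ1 in TAC was 12 of 41. It was 5 and 6 without the library of replicate 2 in TAC-Veh and in TAC-THZ1. It was 3 with the groups fitted alone, 5 with array weights, 4 at an adjusted p under 0.01 and 3 with the fold thresholds. Over all 13331 tested genes the main fit called 2019 higher and 1899 lower. These became 1365 and 1318 without that TAC-Veh library, and 1454 and 1407 without that TAC-THZ1 library. They were 583 and 816 with the groups alone, and 1310 and 1102 with array weights. With TAC the pathway count was 22, beside 21.4% of all genes higher and 23.6% lower, and 6 with the fold thresholds. In sham the pathway count was 0, and 8 with the groups alone and 4 with array weights. Over all tested genes the main fit called 3 higher and 6 lower in sham. The groups alone called 287 and 178, and array weights 254 and 259. With TAC under THZ1 the pathway count was 22, with 9 higher and 13 lower. Of all tested genes, 11.4% and 12.8% were called in those directions. That pathway count was 12 at an adjusted p under 0.01 and 4 with the fold thresholds. For the interaction the pathway count was 4, beside 4.40% of all genes higher and 5.62% lower. It was 2 without any 1 of 7 libraries (Sham-Veh replicates 2 to 4, Sham-THZ1 replicates 1 and 2, TAC-Veh replicate 2 and TAC-THZ1 replicate 2). It was 1 at an adjusted p under 0.01 and 2 with the fold thresholds. Without Sham-Veh replicate 2, interaction calls over all genes went from 587 higher and 749 lower to 255 and 444.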
